A study of Mus musculus with 4 samples.

Results

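The 8 genes described here were transcription factor genes of the GABAergic interneuron lineage and 1 noncoding RNA of a Dlx locus: Dlx1, Dlx2, Dlx5, Dlx6, Dlx6os1, Lhx6, Sp9 and Maf. They were taken by gene symbol from a table of 32531 gene names, and all 8 were found and tested. The study measured RNA of the cerebral cortex of adult mice of the transgenic line NIDA030 (labelled Cbln1-TRAP, or Cbln1-EGFP-Rpl10a), in which regulatory sequence of Cbln1 drives the ribosomal protein Rpl10a with an EGFP tag. The 2 libraries of immunopurified, ribosome-bound RNA (IP) and the 2 libraries of total RNA (input) all came from this one genotype, were numbered 2 and 4 in each group, and no untagged control is analysed here. In this method, known as TRAP, an anti-EGFP antibody pulls down ribosomes of the cells that express the tag, so that IP against input shows which transcripts are over- or under-represented on tagged ribosomes. Which cortical cells carry the tag in this line is not given in the labels, nor is it said whether the libraries come from separate animals. The p-values here therefore reflect the variation among these particular libraries, which may be technical.

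Cortical interneurons are born in the ganglionic eminences of the embryonic ventral forebrain and migrate into the cortex. Dlx homeodomain factors are encoded in pairs of neighbouring genes, Dlx1 with Dlx2 and Dlx5 with Dlx6, and promote the GABAergic fate and the migration of these cells. Lhx6, a LIM homeodomain factor, acts in interneurons of the medial ganglionic eminence, the source of Pvalb and Sst cells, where Maf is also expressed. Sp9 is a zinc finger factor of the ganglionic eminences and of striatal neurons. Dlx6os1, also called Evf2, is a long noncoding RNA of the Dlx5 and Dlx6 locus. Its annotated span covers Dlx6 but does not reach Dlx5.

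The 4 Dlx genes encode closely related proteins, so their reads could in principle be confused. The stretch that encodes the DNA-recognition helix of the homeodomain shows how alike they are at the most conserved place. It is printed here from GENCODE vM21 transcripts, 5′ to 3′, with capitals for bases identical in all 4 genes.
Dlx1: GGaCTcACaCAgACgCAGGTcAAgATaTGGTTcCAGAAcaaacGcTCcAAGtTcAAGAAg
Dlx2: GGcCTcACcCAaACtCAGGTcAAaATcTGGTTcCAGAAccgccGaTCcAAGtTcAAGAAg
Dlx5: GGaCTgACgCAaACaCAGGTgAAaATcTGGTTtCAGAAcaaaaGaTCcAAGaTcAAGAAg
Dlx6: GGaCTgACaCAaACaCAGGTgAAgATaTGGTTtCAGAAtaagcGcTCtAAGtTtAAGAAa
Of these 60 bases, 41 were identical in all 4 genes, and pairs shared from 44 (Dlx2 and Dlx6) to 50 (Dlx1 with Dlx2, and Dlx1 with Dlx6). The longest run of identical bases between any 2 whole Dlx transcripts was 23, between Dlx2 and Dlx6, and no stretch of 50 bases of a Dlx transcript occurred in another Dlx transcript. Dlx2 and Dlx5 shared no such stretch with any annotated gene. In the other 6 members, from 1.59% (Lhx6) to 6.09% (Dlx6) of the distinct stretches of 50 bases also occurred in a transcript of another gene, on either strand. For Dlx1 that gene was its antisense RNA Dlx1as, and for Sp9 it was mainly Cir1, a neighbour on the opposite strand.

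The transcription start regions of the most reduced member and of members that lay on opposite sides are shown because they differ in composition; they were picked after the values were seen. Each is the RefSeq region from 250 bases before to 50 after a start on GRCm38.p6, 5′ to 3′ on the gene's own strand, with 2 motifs in capitals, the homeodomain core TAATTA, which reads the same on both strands, and the GC box GGGCGG. In all 4 motifs were searched on both strands, these 2 with the TATA box TATAAA and the homeodomain core variant CAATTA, and no 2 motif copies overlapped in these sequences.
Dlx6os1, chr6:6869484-6869783, minus strand: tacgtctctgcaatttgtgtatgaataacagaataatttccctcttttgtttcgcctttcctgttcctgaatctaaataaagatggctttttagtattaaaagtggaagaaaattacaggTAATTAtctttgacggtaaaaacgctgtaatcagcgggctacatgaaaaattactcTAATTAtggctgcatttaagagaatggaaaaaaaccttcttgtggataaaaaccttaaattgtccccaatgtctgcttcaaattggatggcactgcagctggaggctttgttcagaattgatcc
Dlx1, chr2:71529195-71529494, plus strand: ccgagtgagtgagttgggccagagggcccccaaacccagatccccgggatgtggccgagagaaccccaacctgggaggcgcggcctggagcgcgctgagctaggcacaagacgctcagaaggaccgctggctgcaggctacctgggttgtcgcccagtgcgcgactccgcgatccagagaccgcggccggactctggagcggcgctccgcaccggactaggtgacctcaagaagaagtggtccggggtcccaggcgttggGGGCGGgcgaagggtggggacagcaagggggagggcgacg
Sp9, chr2:73271676-73271975, plus strand: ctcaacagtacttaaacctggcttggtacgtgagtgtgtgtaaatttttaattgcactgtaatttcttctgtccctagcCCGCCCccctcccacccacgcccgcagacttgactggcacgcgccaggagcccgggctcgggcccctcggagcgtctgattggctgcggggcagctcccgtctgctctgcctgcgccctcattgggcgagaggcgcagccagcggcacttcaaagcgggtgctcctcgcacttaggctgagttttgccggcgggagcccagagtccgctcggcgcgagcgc
The printed Dlx6os1 region held 2 copies of TAATTA, which begin at bases 121 and 177 of the sequence, and no GC box. Among 32851 RefSeq start regions of the same length, 5.29% held TAATTA, 35.7% the GC box, 13.6% TATAAA and 8.0% CAATTA. The Dlx1 and Sp9 regions each held 1 GC box and no TAATTA, and Sp9 also 1 CAATTA, while none of the 3 printed regions held TATAAA. A second Dlx6os1 start region, at chr6:6861634-6861933 and not printed, held 1 TAATTA, 1 CAATTA, 2 TATAAA and 3 CpG. A match describes the letters in the window only. The printed Dlx6os1 region held 5 CpG dinucleotides, whereas Dlx1 had 27 and Sp9 had 25, and the median over all start regions was 7. Start regions were matched for 5 of the 8 members.

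Relative to input, 5 of the 8 genes were lower in IP, 1 was higher and 2 did not pass the test. Dlx6os1 fell most, 4.14-fold, followed by Lhx6 (2.26-fold), Dlx5 (1.94-fold), Dlx1 (1.89-fold) and Maf (1.32-fold). Sp9 was 1.88-fold higher in IP, and Dlx2 and Dlx6 had estimates close to no difference with wide errors. Called means a Benjamini-Hochberg adjusted p under 0.05 in edgeR's quasi-likelihood test over all 16600 genes tested. Among all of these genes, 22.4% were called lower and 23.4% higher in IP, and among those the annotation gives as protein-coding 17.5% and 27.1%. Both IP libraries lay below both inputs in 37.8% of all genes and above them in 35.3%, against 5 and 1 of the 8. In genes of 5 to 50 CPM (counts scaled to a common, normalised library size), the range that held 6 of the members, 20.4% were called lower and 28.1% higher. In genes of 1 to 5 CPM, which held Dlx2 and Dlx6, the shares were 25.0% and 6.16%. The median log2 fold change was -0.66 over the 8 genes and -0.04 over all genes tested. In bulk RNA such as this, which cells a transcript came from and how much of it was bound to ribosomes cannot be told apart.

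**Figure D1:**
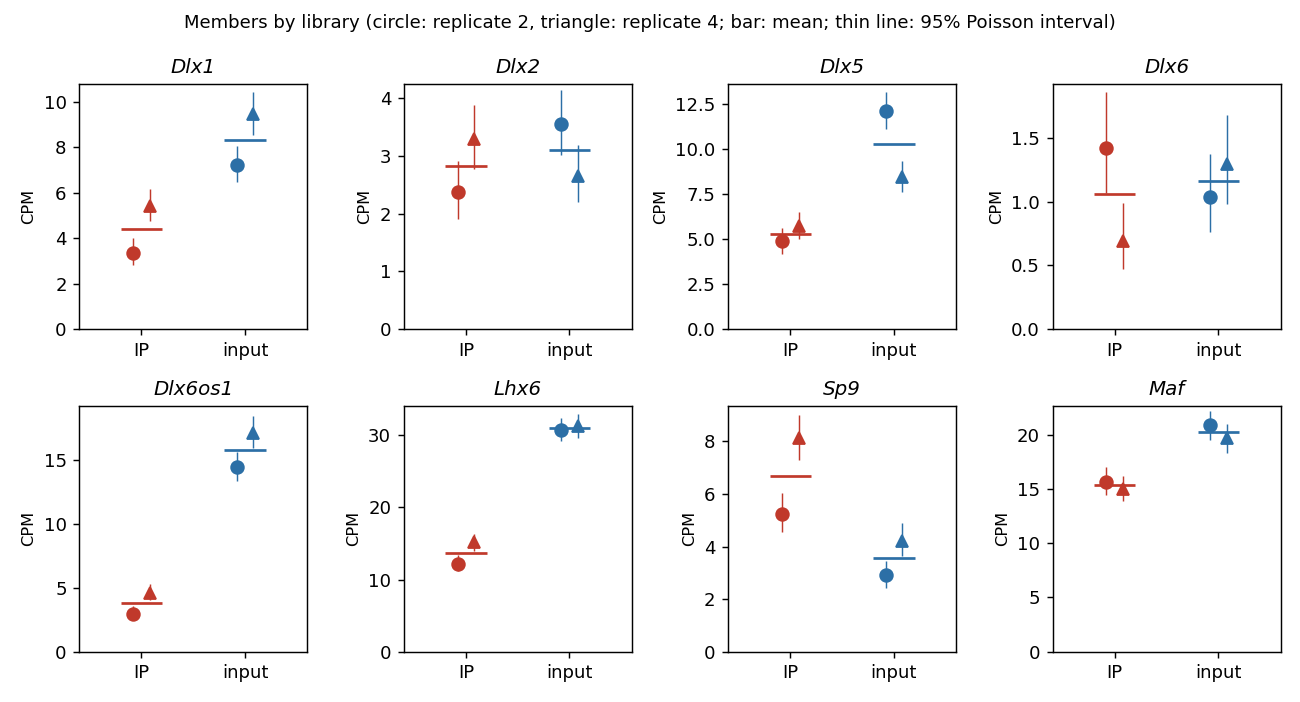
Normalised abundance (CPM) of each gene in the 4 libraries, with circles for replicate 2, triangles for replicate 4, a bar at each group's mean and thin lines for the 95% Poisson interval of each count. In Dlx1, Dlx5, Dlx6os1, Lhx6 and Maf both IP libraries lie below both input libraries, in Sp9 both lie above, and in Dlx2 and Dlx6 the groups overlap.

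Lhx6 was the most abundant of the 8 in input. Its levels were 12.2 and 15.1 CPM in IP 2 and IP 4, against 30.7 and 31.2 CPM in input 2 and input 4, from 464, 654, 1397 and 1352 counts. The input libraries were nearly equal, and both IP libraries lay far below them. The log2 fold change was -1.18 (SE 0.14, edgeR quasi-likelihood adjusted p = 2.24e-06), and 11.9% of all genes tested had a lower one. Lhx6 (ENSMUSG00000026890.19) is a minus-strand gene at chr2:36081953-36105408 (GRCm38), and no other gene counted in the files shares its annotated exons.

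Dlx5 and Dlx1, 1 gene of each Dlx pair, were lower in IP by similar amounts. Dlx5 stood at 4.87 and 5.71 CPM in IP 2 and IP 4 and at 12.1 and 8.43 CPM in input 2 and input 4. Dlx1 stood at 3.37 and 5.41 CPM in IP 2 and IP 4 and at 7.22 and 9.45 CPM in input 2 and input 4. The groups did not overlap in either gene, although the input libraries of Dlx5 and the IP libraries of Dlx1 lay well apart from each other. The log2 fold change was -0.96 for Dlx5 (SE 0.22, edgeR adjusted p = 0.00131) and -0.92 for Dlx1 (SE 0.24, edgeR adjusted p = 0.00470). For Dlx1 it ranged from -0.60 without IP 2 to -1.30 without IP 4, and it passed the test each time. Dlx5 (ENSMUSG00000029755.10) is a minus-strand gene at chr6:6877805-6882085 and Dlx1 (ENSMUSG00000041911.3) a plus-strand gene at chr2:71528113-71533981 (GRCm38). Dlx1 shares 6.21% of its annotated exon bases with Dlx1as on the opposite strand.

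Their partners Dlx2 (ENSMUSG00000023391.8, chr2:71543408-71546754, minus strand) and Dlx6 (ENSMUSG00000029754.13, chr6:6863334-6868568, plus strand) did not pass the test. Dlx2 stood at 2.37 and 3.29 CPM in IP 2 and IP 4 and at 3.54 and 2.66 CPM in input 2 and input 4, so the groups overlapped. Its log2 fold change was -0.13 (SE 0.31, edgeR adjusted p = 0.758). Dlx6, the least abundant of the 8, was counted 54 and 30 times in IP 2 and IP 4, and 47 and 56 times in input 2 and input 4. That is 1.42, 0.694, 1.03 and 1.29 CPM in the same order, with the 2 IP libraries as the highest and the lowest. With a log2 fold change of -0.14 and an SE of 0.51 (edgeR adjusted p = 0.841), a difference as large as that of Dlx5 was not detectable for Dlx6 at this depth. The estimates of both genes changed sign when 1 library was left out: Dlx2 stood at 0.10 without IP 2 and without input 2, and Dlx6 at 0.30 without IP 4 and 0.04 without input 4.

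The ratio within each pair shows how far partners parted, without any scaling between libraries. Counts of Dlx2 per count of Dlx1 were 0.703 and 0.607 in IP 2 and IP 4 and 0.491 and 0.281 in input 2 and input 4, higher in both IP libraries. The ratio of Dlx6 to Dlx5 was 0.292 and 0.121 in IP and 0.0855 and 0.153 in input, and its groups overlapped. With 2 libraries against 2, an exact two-sided permutation test cannot give a p below 0.333, the value reached by the first ratio. Over the 16 ratios computed, all chosen after the values were seen, the smallest Benjamini-Hochberg adjusted value was 0.485, so no ratio passed the test.

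Dlx6os1 stood apart from the coding genes around it. It was counted 113 and 200 times in IP 2 and IP 4 and 657 and 742 times in input 2 and input 4. In CPM these are 2.97, 4.63, 14.5 and 17.1, so the higher IP library reached less than the lower input library by a wide margin. The log2 fold change was -2.05 (SE 0.21, edgeR adjusted p = 3.43e-07), and 6.0% of all genes tested lay lower. Dlx6os1 (ENSMUSG00000090063.6) is a minus-strand gene at chr6:6820189-6871592 (GRCm38), annotated as antisense. Dlx6 lies within that span on the plus strand, but the exons of the pair do not overlap in this annotation. Dlx6 does share 4.38% of its exon bases with Dlx6os2, another gene of the locus that is counted and lies on the opposite strand.

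Dlx6os1 was also low in IP when set against its neighbours. Counts of Dlx6os1 per count of Dlx5 were 0.611 and 0.810 in IP 2 and IP 4 and 1.19 and 2.03 in input 2 and input 4. Per count of Dlx6 they were 2.09 and 6.67 in IP and 14.0 and 13.2 in input. Both ratios were lower in both IP libraries than in either input library, at the smallest p that the exact permutation test allows, 0.333. Dlx1as, the antisense RNA of the other pair, was lower in IP, as was its coding neighbour Dlx1. The difference of Dlx1as was 2.08-fold (log2 fold change -1.05, SE 0.25, edgeR adjusted p = 0.00207), with no call without input 2 (-0.64). Dlx1as shares 20.6% of its exon bases with Dlx1, so reads of the pair may be mixed. Its ratio to Dlx1 was 1.17 and 0.667 in IP and 1.36 and 0.623 in input, with overlapping groups.

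**Figure D2:**
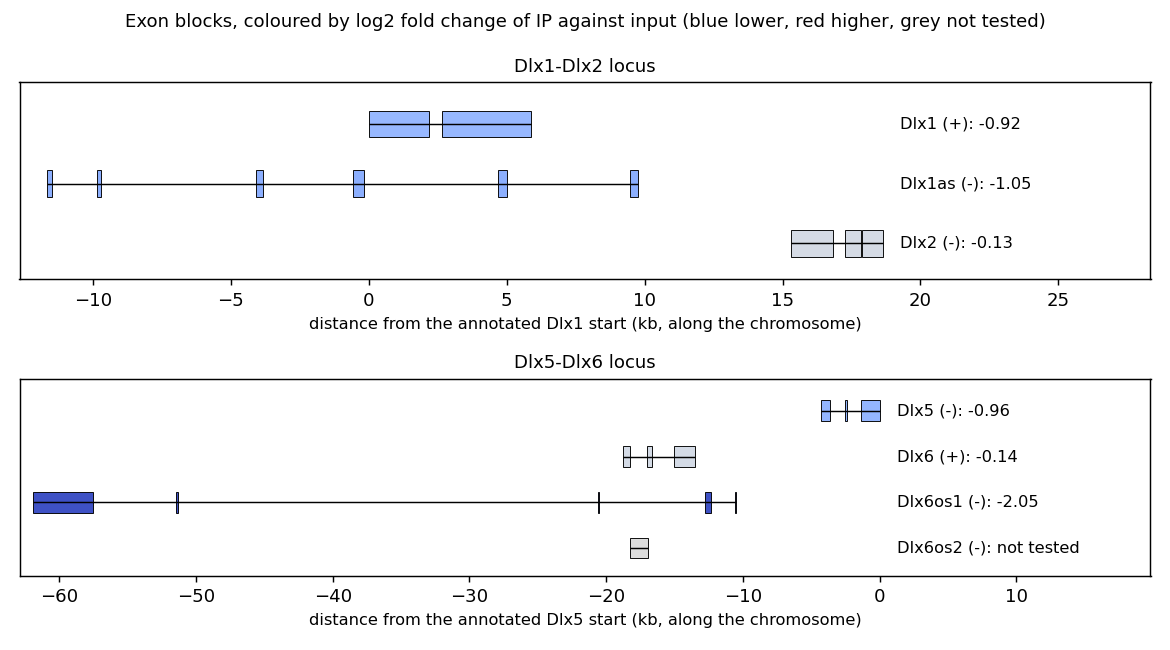
Exon blocks of the Dlx1-Dlx2 and Dlx5-Dlx6 loci in GENCODE vM21, by distance in kb from the annotated start of Dlx1 or Dlx5, with strand and log2 fold change of IP against input beside each gene. The antisense Dlx6os1 is darkest (-2.05), Dlx1, Dlx1as and Dlx5 are lighter (-0.92 to -1.05), and Dlx2 and Dlx6, which did not pass the test, are near white.

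Noncoding RNAs were low in IP as a class, and Dlx6os1 lay within their range. Of 438 genes tested that the annotation gives as antisense or lincRNA, 50.9% were called lower and 0.228% higher in IP, and 116 of them had a lower log2 fold change than Dlx6os1. Among the 56 of these with 5 to 50 CPM, 42 were called lower, with a median of -0.86, and 6 lay below Dlx6os1. In a list of noncoding RNAs of transcription factor loci, all 8 that were tested fell, Dlx6os1 and Dlx1as included (median -2.02). Rmst, a noncoding RNA of neurogenesis, was at -2.56, Sox2ot, which overlaps the Sox2 gene, at -1.98, and Emx2os, antisense to the cortical factor gene Emx2, at -1.80. In the list of nuclear noncoding RNAs 11 of 12 fell and 1 did not pass (median -2.84), with Malat1 of nuclear speckles at -3.58. Meg3 and Kcnq1ot1, both of imprinted domains, were at -3.12 and -3.01, and Miat was at -2.97.

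Sp9 was the gene that rose. It stood at 5.24 and 8.12 CPM in IP 2 and IP 4 and at 2.90 and 4.23 CPM in input 2 and input 4, from 199, 351, 132 and 183 counts. Input stayed below IP in every pairing of libraries, and in each group replicate 4 was the higher. The log2 fold change was 0.91 (SE 0.27, edgeR adjusted p = 0.00939), and 94.0% of all genes tested had a lower one. When IP 4 was left out the call was lost at 0.56 (edgeR adjusted p = 0.126), and when input 2 was left out, at 0.67 (edgeR adjusted p = 0.0684). Sp9 (ENSMUSG00000068859.5) is a plus-strand gene at chr2:73271925-73284706 (GRCm38) and shares 5.35% of its exon bases with Cir1, a corepressor gene on the opposite strand. Cir1 did not pass the test (log2 fold change 0.18, SE 0.21, edgeR adjusted p = 0.516).

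Of 12 genes of the LIM homeobox family, 5 were tested. Lhx6 was the 1 gene called lower, and the other 4 did not pass. The median of those 4 was also below 0, at -0.75, so the lower side was not particular to Lhx6. The other called genes of the Sp family lay on the lower side. Of 7 other Sp genes tested, 3 fell and 4 did not pass. The broadly expressed Sp1 was at -1.04, Sp3 at -0.61 and Sp4 at -0.49. Counts of Sp9 per count of Dlx1 were 1.55 and 1.5 in IP 2 and IP 4 and 0.402 and 0.447 in input 2 and input 4. Per count of Lhx6 they were 0.429 and 0.537 in IP and 0.0945 and 0.135 in input. Both ratios were higher in both IP libraries, again at the smallest exact permutation p of 0.333.

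Maf (ENSMUSG00000055435.6, chr8:115682942-115707794, minus strand) differed least among the genes that were called. It stood at 15.7 and 15.02 CPM in IP 2 and IP 4 and at 20.8 and 19.6 CPM in input 2 and input 4. The replicates were close together and the groups did not overlap. The difference of -0.40 on the log2 scale (SE 0.14, edgeR adjusted p = 0.0288) lost the call without any one of the 4 libraries (adjusted p from 0.0603 to 0.158) and with DESeq2 (adjusted p = 0.0511). Among 5 other Maf family genes tested, 1 rose (none with library sizes alone), 1 fell (Mafg, a small Maf protein gene, at -0.36) and 3 did not pass. Mafg lost its call without IP 4, without input 4, with DESeq2 and with no filter on low counts.

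**Figure D3:**
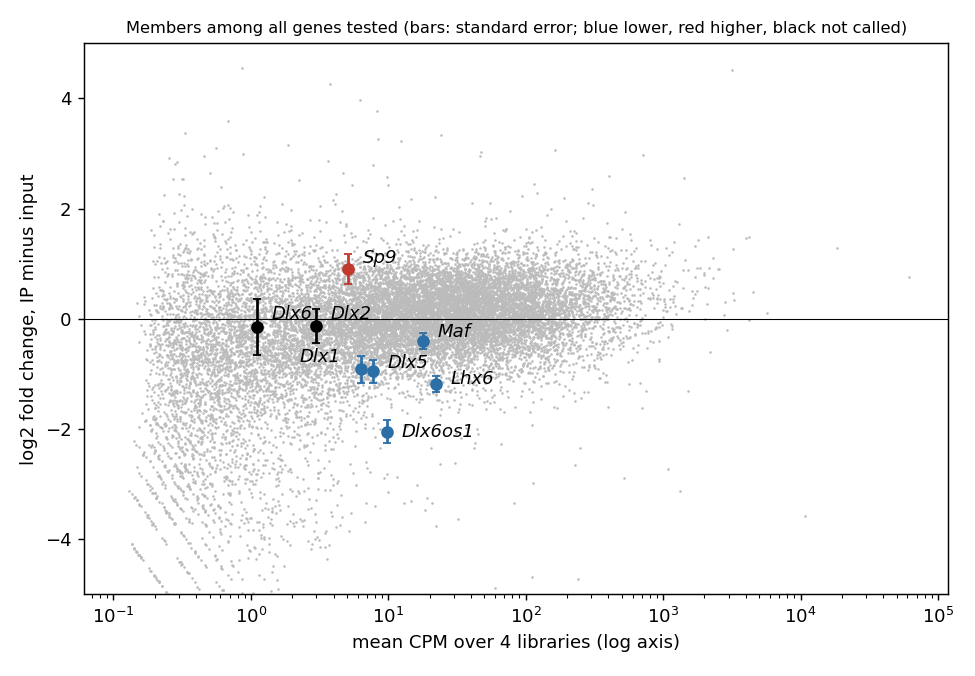
Log2 fold change of IP against input by mean CPM over the 4 libraries (log axis) for all genes tested (grey, with values beyond 5 in either direction not drawn) and the 8 genes (bars: standard error). Dlx6os1 lies lowest of the 8 at -2.05 and Sp9 highest at 0.91.

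Compared per kb of annotated exon, the order of the levels changed between the groups. In input the mean level was 6.45 CPM per kb for Lhx6, 4.54 for Dlx5, 3.05 for Dlx6os1 and 2.46 for Maf. Dlx1 followed at 1.54, Dlx2 at 1.09, Sp9 at 0.707 and Dlx6 at 0.490 CPM per kb. No neighbours in this order overlapped in their single libraries, the closest being Sp9 and Dlx6 (0.576 against 0.545). In IP the order was Lhx6 at 2.85, Dlx5 at 2.34, Maf at 1.86 and Sp9 at 1.32 CPM per kb. Dlx2 (0.990), Dlx1 (0.814), Dlx6os1 (0.735) and Dlx6 (0.445) followed. From Sp9 downwards each gene overlapped the next in its single libraries, while Lhx6 and Dlx5, Dlx5 and Maf, and Maf and Sp9 did not overlap. Levels per kb assume that the annotated exons are those the authors counted over.

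The other genes of the GABAergic program did not move as one. Of 16 other transcription factors of the interneuron lineage that were tested, 4 fell, 3 rose and 9 did not pass (median -0.21). Nr2f2, a nuclear receptor of the caudal ganglionic eminence, rose by 0.75 (SE 0.14), whereas Zeb2, a zinc finger factor of migrating interneurons, was at -0.68 (SE 0.09) and Npas3, a bHLH-PAS factor, at -0.53 (SE 0.16). With library sizes alone 5 of the 16 fell and 1 rose, and without IP 2 or without input 4 only 1 fell, Npas3 being among the calls lost. Of 14 genes tested that lie downstream of Dlx or Lhx6 factors, 10 of them in other lists too, 4 fell, 3 rose and 7 did not pass. Among these, Sox6, needed by cells of the medial ganglionic eminence, was at -0.45 and Ackr3, a chemokine receptor of migrating interneurons, at 0.71. The median of that list, 0.07, turned to -0.19 with library sizes alone, where none of the 14 rose. Without IP 2 or without input 4, 1 fell and Sox6 lost its call, and Ackr3 lost its own without input 4.

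Genes that make and carry GABA differed less than Lhx6 or Dlx6os1. Of 5 tested, 1 rose (none with library sizes alone or without input 2), 1 fell (Abat, which breaks GABA down, -0.45) and 3 did not pass. Their median of 0.18 turned to -0.08 with library sizes alone. Gad2, the most abundant, stood at 376 and 514 CPM in IP 2 and IP 4 and at 502 and 551 CPM in input 2 and input 4. It missed the threshold at -0.24 (SE 0.11, edgeR adjusted p = 0.0922) but passed as lower without IP 4 (-0.48), without input 2 (-0.30), with library sizes alone (-0.50) and in 3 other settings. Abat lost its call without IP 2 and without input 4. Gad1 and Slc32a1, the other genes that define GABAergic cells, had log2 fold changes of 0.28 and 0.18 and did not pass either.

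Each member was also expressed per 100 CPM of Gad1, Gad2 and Slc32a1 summed, which are among the 16 ratios above. Lhx6 stood at 2.35 and 2.18 in IP 2 and IP 4 and at 4.85 and 4.53 in input 2 and input 4. Dlx6os1 stood at 0.571 and 0.666 in IP and 2.28 and 2.48 in input. On this scale the IP libraries of Lhx6, Dlx6os1, Dlx1 and Dlx5 lay below both input libraries and those of Sp9 above, while Dlx2, Dlx6 and Maf overlapped. Dlx1 stood at 0.647 and 0.779 in IP and 1.14 and 1.37 in input, and Sp9 at 1.01 and 1.17 in IP and 0.458 and 0.613 in input. This ratio does not depend on how libraries are scaled, but it does on Gad2, the largest part of the sum.

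Markers of interneuron subclasses moved in both directions. Of 17 tested, 8 fell, 2 rose and 7 did not pass (median -0.31). Reln, the secreted reelin made by many interneurons, rose by 0.89 (SE 0.10). Npy, a neuropeptide gene, was at -0.85 (SE 0.16), Adarb2, a marker of caudal interneurons, at -0.84 (SE 0.22), and Cort, the cortistatin gene of Sst cells, at -1.44 (SE 0.48). Kcnc1, a potassium channel of fast-spiking cells and the most abundant of the list, was at -0.34 (SE 0.10). Cort lost its call without IP 4 and without input 2, Adarb2 without IP 2 and with DESeq2 (adjusted p = 0.192), and Kcnc1 without input 4. Without IP 2, 5 of the 17 fell and 4 rose; without input 4, 5 fell and 1 rose; and 1 rose without IP 4, with DESeq2, with library sizes alone, with the stricter filter and without Rn45s and 5 genes. Summed, the list stood at 586 and 647 CPM in IP and at 651 and 642 CPM in input.

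Transcription factors of cortical excitatory neurons also moved both ways. Of 20 tested, 7 rose, 4 fell and 9 did not pass, and their median was 0.16, or -0.10 under library sizes alone, where 4 rose, as with the stricter filter. Neurod6 rose by 1.42 (SE 0.10) and Nr4a2 by 1.27 (SE 0.10). Rorb, of layer 4, was at -0.96 (SE 0.10) and Bcl11b, of layer 5 output neurons and also of interneurons, at -0.94 (SE 0.11), close to the values of Dlx1 and Dlx5. A reduction of that size was thus also seen in Rorb, listed here for excitatory neurons, while Bcl11b is shared with interneurons.

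**Figure D4:**
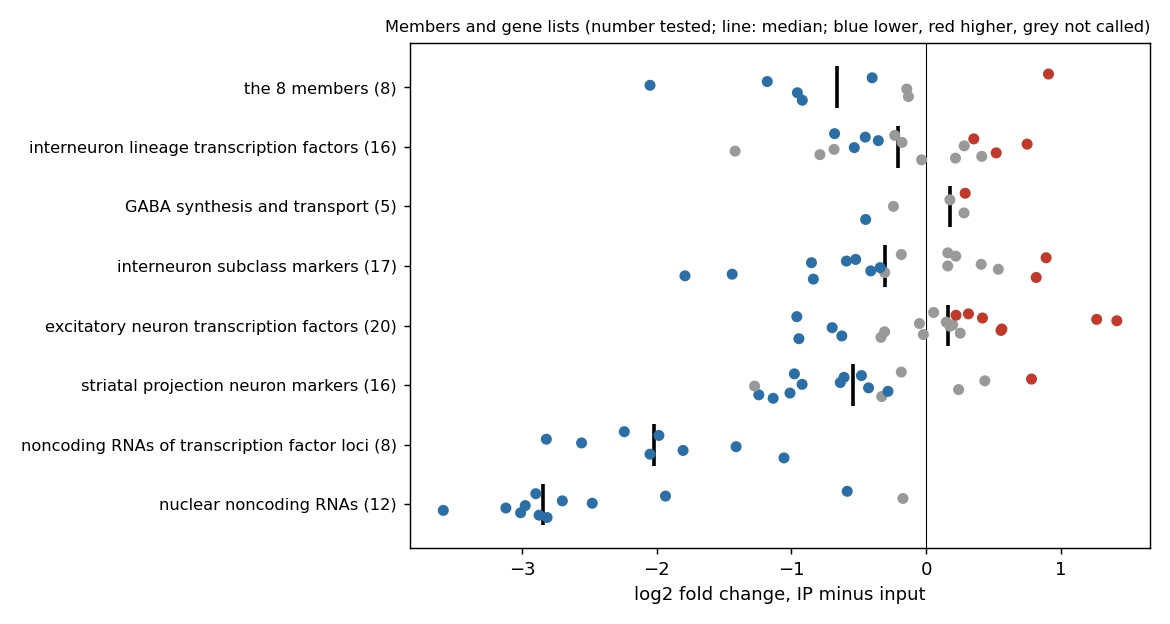
Log2 fold change of IP against input for the 8 genes and 7 gene lists, 1 point per gene tested, with a line at the median (blue lower, red higher, grey not called). The noncoding lists lie lowest (medians -2.02 and -2.84), while the GABA list lies near 0 (median 0.18, or -0.08 with library sizes alone).

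Markers of other cells that express some of these factors were read beside them. Dlx genes, Dlx6os1 and Sp9 are known in striatal projection neurons, which a cortex dissection can include. Of 16 striatal markers tested 10 fell, 1 rose and 5 did not pass (median -0.54), with summed levels of 722 and 812 CPM in IP and 975 and 1058 CPM in input. Drd2, a dopamine receptor, was at -1.24, Adora2a, an adenosine receptor, at -1.14, Ebf1, a transcription factor, at -1.01 and Rgs9 at -0.98. Foxp1, the most abundant of that list and also cortical, was at -0.28. Ebf1 lost its call without IP 4 and without input 2, and Foxp1 without IP 2, without input 2 and without input 4. None of the 16 markers was at 0 in both IP libraries, and the part of such cells in the Dlx values was not tested.

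For Maf, microglia and endothelium were looked at because they can express it. Of 12 microglial markers 2 fell, 1 rose and 9 did not pass, with sums of 71.9 and 75.1 CPM in IP and 74.5 and 71.2 CPM in input, so those sums overlapped. Csf1r, a growth factor receptor, rose by 0.75, whereas P2ry12, a purinergic receptor, was at -0.55 and Tmem119 at -0.98. Of 9 endothelial markers 1 fell (Abcb1a, an efflux pump, at -1.38) and 8 did not pass. That count was 3 with library sizes alone, 2 without IP 4 or without input 4, and 0 without IP 2, without input 2, with the stricter filter and with DESeq2 (Abcb1a adjusted p = 0.0599). Their sums were 9.58 CPM in both IP libraries and 15.7 and 10.5 CPM in input, and Flt1, the most abundant, was at -0.35 (edgeR adjusted p = 0.416). Of 7 astrocyte markers 3 fell and 2 rose, with the glutamate transporter gene Slc1a2 at -0.61 and the water channel gene Aqp4 at -0.39, and Gfap and Aldh1l1 at 0.61 and 0.68. Of 7 oligodendrocyte markers 4 fell and 2 rose, with the myelin genes Mobp and Mbp at -1.61 and -0.63, and Cnp and Mag at 0.79 and 0.74. P2ry12 lost its call without input 2, Tmem119 without input 4, and Aldh1l1 without IP 4. The part of these cells in the Maf value was not tested.

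The regions around the 8 genes did not share a direction. The 2 nearest protein-coding genes on each side gave 20 distinct neighbours, of which 18 were matched by symbol and 16 tested. Of these 7 rose, 1 fell and 8 did not pass. The gene that fell was Metap1d, a mitochondrial methionine aminopeptidase gene that ends 2.92 kb before Dlx1, at -0.67 (SE 0.23, edgeR adjusted p = 0.0220). Beside Sp9, Ola1, an ATPase gene, rose by 1.07 (SE 0.09), and Scrn3 and Gpr155 by 0.38 and 0.41. Beside Lhx6, Ndufa8, a subunit of respiratory complex I, rose by 0.57 and Mrrf, a mitochondrial ribosome recycling factor, by 0.53. Hat1, a histone acetyltransferase on the far side of Metap1d, rose by 0.58, and Wwox, beside Maf, by 0.51. Of the uncalled neighbours, Itga6, Sdhaf3 and Tac1 stood at -0.32, -0.31 and -0.18, and Cdyl2, Rbm18 and Pdk1 at -0.04, 0.03 and 0.11. Slc25a13 and Morn5, both under 2 CPM, stood at 1.28 and 1.08. Metap1d lost its call without IP 2, without input 2 and with DESeq2 (adjusted p = 0.0518), Mrrf and Gpr155 without input 2, and Scrn3 without IP 4 and with the stricter filter. Slc25a13 passed as higher without IP 2 (1.68), without input 4 (2.1), with the replicate block and with no filter. With library sizes alone the balance of the 16 turned to 3 that rose and 5 that fell: Scrn3, Gpr155, Mrrf and Wwox did not pass, while Itga6 (-0.58), Sdhaf3 (-0.57), Tac1 (-0.44) and Cdyl2 (-0.30) passed as lower.

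Over the 4 libraries, the genes with patterns nearest to Dlx6os1 included Ccdc171, Sox2ot and Chuk. They were ranked by Euclidean distance of gene-centred log2 CPM among 10110 other genes with at least 5 CPM, and their distances were 0.167, 0.273 and 0.278. Nearest to the mean of the 7 coding genes of the set were genes that included Nfe2l2, Arhgap29 and Numb, at distances of 0.0219 to 0.0320. Their log2 fold changes were -0.42, -0.41 and -0.40, and each of the 3 lost its call without IP 2, Nfe2l2 and Arhgap29 also without input 2 and without input 4, and Nfe2l2 with DESeq2. The mean of the 7 joins genes that went opposite ways, such as Lhx6 (-1.18) and Sp9 (0.91). A small distance to it is therefore not a likeness to each of these genes. The ranking rests on 4 libraries and is given as a description.

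Scaling and the choice of libraries bore on the 8 genes unequally. Dlx1, Dlx5, Dlx6os1 and Lhx6 kept their direction and their call in all 11 other settings. Their log2 fold changes ranged over these settings from -1.30 to -0.60, from -1.22 to -0.67, from -2.40 to -1.75 and from -1.44 to -1.02 in that order. Scaling by library sizes alone moved the median of all genes by -0.26, and Sp9 still passed there at 0.65 (adjusted p = 0.0478).

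**Figure D5:**
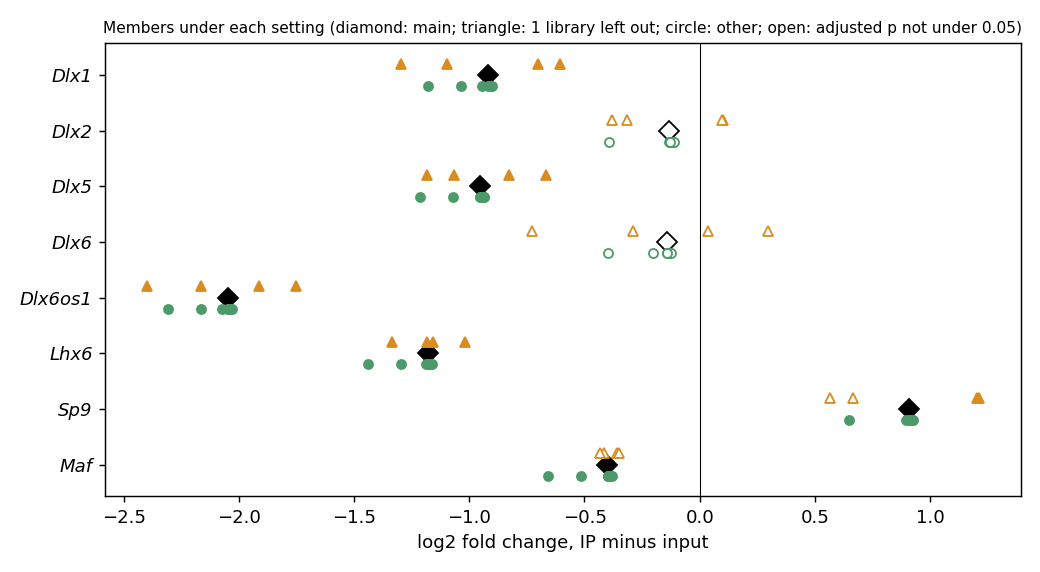
Log2 fold change of each of the 8 genes as reported (diamond), with 1 library left out (triangles) and under other settings (circles), with open symbols where the adjusted p was not under 0.05. Dlx1, Dlx5, Dlx6os1 and Lhx6 have filled symbols throughout, Maf has open triangles and 1 open circle (DESeq2), Sp9 has 2 open triangles, and the symbols of Dlx2 and Dlx6 are open and lie on both sides of 0.

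The counts behind these values came from 39750468 to 47567384 gene-assigned reads per library, so that a floor of 3 counts was 0.0660 to 0.0790 CPM. Cbln1, whose regulatory sequence the line is named for, was 8.19-fold higher in IP. Reads whose gene was ambiguous made up 1.54% of all records in both IP libraries and 5.07% and 5.09% in input, and reads outside annotated features 7.31% and 7.54% against 14.9% and 13.5%. Lane 1 held both IP libraries and lane 2 both inputs: lane cannot be told apart from group. Other members of the Dlx family were at the edge of detection: Dlx3 had 19 counts in input 2 and 0 in the other 3 libraries, and Dlx4 had 3, 5, 22 and 3 counts, so neither was tested. Of the 6 genes tested in the list of the Dlx family and its locus RNAs, 4 fell and 2 did not pass (median -0.94), and 5 of the 6 are members.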

How the data were processed

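Counts were measured in 4 libraries of mouse cortex, 2 IP and 2 input. The files hold the authors' deposited whole-number read counts per gene name, not normalised. The submitters' processing notes name, per the labels, the tools HTSeq and STAR 2.0.0e and the build mm10. Annotation, strand setting and library kit: not given in the sources used here. Lines that name no gene, 45.9% to 52.0% of records per library (mostly reads without a unique alignment), stayed out of library sizes and tests.

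The whole table was fitted with edgeR 4.0.16 in R 4.3.3: TMM factors, a filterByExpr filter (at least 10 counts, total of 15), then the quasi-likelihood test with no block, two-sided, with Benjamini-Hochberg adjustment over 16600 genes. Standard errors are the log2 fold change over the square root of F. The method was tested on simulated data. Replicates differed by more than sampling noise (chi-square per degree of freedom 18.1 in IP and 12.5 in input), so no library was a copy. Alternatives were DESeq2 1.42.0, other scalings, other filters, omission of single libraries, a replicate block, and omission of Rn45s and the 5 genes most raised in IP.

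Gene positions, exons and biotypes were those of GENCODE vM21 (GRCm38, known as mm10 too; 23161 of 32531 names matched by symbol), and start regions from RefSeq on GRCm38.p6. Poisson intervals (95%, exact) and floors cover counting error only. Without strand, reads of antisense partners could not be told apart. The members, 16 gene lists and tests were chosen with earlier results of these data known. Named genes were the members, Cbln1 and Malat1, up to 4 called genes per list with the largest absolute log2 fold change and at least 1 CPM, the most abundant marker of each cell type list (or of a list with no call), the nearest patterns, and neighbours. Dlx1as, Cir1, Gad1, Slc32a1, Dlx3 and Dlx4 were named outside that rule, after their values were seen. Some genes that the rule names are not reported here.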

Additional observations from a re-analysis of the deposited data

How the results depend on the processing

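Over the 11 other settings, Dlx1, Dlx5, Dlx6os1 and Lhx6 kept direction and call. Members called lower numbered 4 with DESeq2 and 4 without any one library, each time without Maf, whose value was -0.39 with DESeq2 and -0.43 to -0.35 with 1 library left out. Members called higher numbered 0 to 1 with 1 library left out (Sp9 0.56 to 1.21) and 0 with the stricter filter of 5 CPM, under which Sp9, Dlx2 or Dlx6 gave no value. With 1 library left out Dlx2 ranged from -0.38 to 0.10 and Dlx6 from -0.73 to 0.30, and neither passed in any setting run. With library sizes alone 5910 genes were lower and 2151 higher, and list genes called higher numbered 12, against 20; the cause of the shift was not tested. Other uncalled genes that changed sign with 1 library left out were Flt1 (-0.629 to 0.0181), Tac1 (-0.395 to 0.0214), Rbm18 (-0.117 to 0.193) and Cdyl2 (-0.0869 to 0.0300). Library sizes alone gave Cir1 -0.0787, Pdk1 -0.151 and Rbm18 -0.225, and the stricter filter Pdk1 -0.00758 and Rbm18 -0.0831. The numbers 2 and 4 recur in both groups, but no label says that they mark the same animal. Deviations of same-numbered libraries correlated at 0.0481 across 16600 genes, so the number was not treated as a pairing. With the replicate block 5 members were lower and 1 higher, and 4037 genes were lower and 4314 higher. Dlx6 had the fewest counts of the members, with 30 to 56 per library.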
